A study of Mus musculus with 8 samples.

Results

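The genes described here are 8 genes picked from earlier results of these arrays because their signal looked nearly on or off between arrays: Cyp2b13, Dscaml1, Brinp3, Cpq, Smim20, Ap1s3, Vdr and Gm14207. Every non-control probe whose RefSeq accession belongs to one of them was taken, which gave 9 probes for 8 of the 20660 genes with a symbol and a probe. The choice used the levels themselves, so the levels and the differences between groups are a description. Where a fit over all features called some of these genes, their number stands beside the share of all features called and nothing is read from it. The working idea behind the choice was that the genes follow the level of Cbx3, and 5 of the 8 did so on all 8 arrays. Brinp3, Cpq and Gm14207 split the arrays in other ways.

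The arrays hold total RNA of mouse neurospheres, spheres of neural stem and progenitor cells, grown from the ganglionic eminence of the telencephalon at stage E14.5. Cells of a single embryonic brain made up each sample and were kept for 7 days in Neurobasal medium with B-27, heparin, and EGF and bFGF at 20 ng/ml each. Wild-type (+/+) floating cultures gave 3 arrays, HP1gamma KO (-/-) floating cultures 3 arrays and HP1gamma KO adherent cultures 2 arrays, called WT floating, KO floating and KO adherent. The same ultra-low attachment plates are described for every sample, so how the adherent cultures were kept is unclear. The strain, the design of the KO allele and any litter or embryo shared between arrays of 1 number were not given in the sources, so p-values measure the spread between these samples.

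Cbx3 encodes HP1gamma, a chromatin protein whose chromodomain binds histone H3 methylated at lysine 9 and whose chromoshadow domain binds other factors. It is found in heterochromatin and also along transcribed genes, and its loss can raise or lower the RNA of a gene. Neural stem cells of the ganglionic eminence give rise to interneurons and glia.

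The quantity used throughout is the level, log2 of the processed signal minus the array's own 75th percentile, so 0 is the signal that 75% of the spots stay below. A spot counts as above background where the scanner software flagged it as well above background. The 75th percentile lay between 616 and 865 signal units, 44.5% to 55.4% of the spots were above background on an array, and 0 spots were saturated. Of 16 markers of neural stem cells and the ganglionic eminence, 12 were above background on all 8 arrays, among them Sox2, Nes and Fabp7. Gsx2 was above background on 0 arrays and Nkx2-1 on 1, although both are regional factors of the ganglionic eminence.

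The Cbx3 level opposed the label on 2 arrays. Its brighter probe had 5.83 and 5.95 on WT floating 1 and 3, and -2.17 on the array labelled WT floating 2. It had -1.86, -2.76 and -1.75 on KO floating 1, 2 and 3 and -2.03 on KO adherent 1, and 5.91 on the array labelled KO adherent 2. All 8 values were above background, and the other Cbx3 probe divided the arrays in the same manner. The position of these probes relative to the deletion was not given in the sources. The groups are kept as labelled, values on these 2 arrays are given by array, and comparisons are repeated without them.

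**Figure D1:**
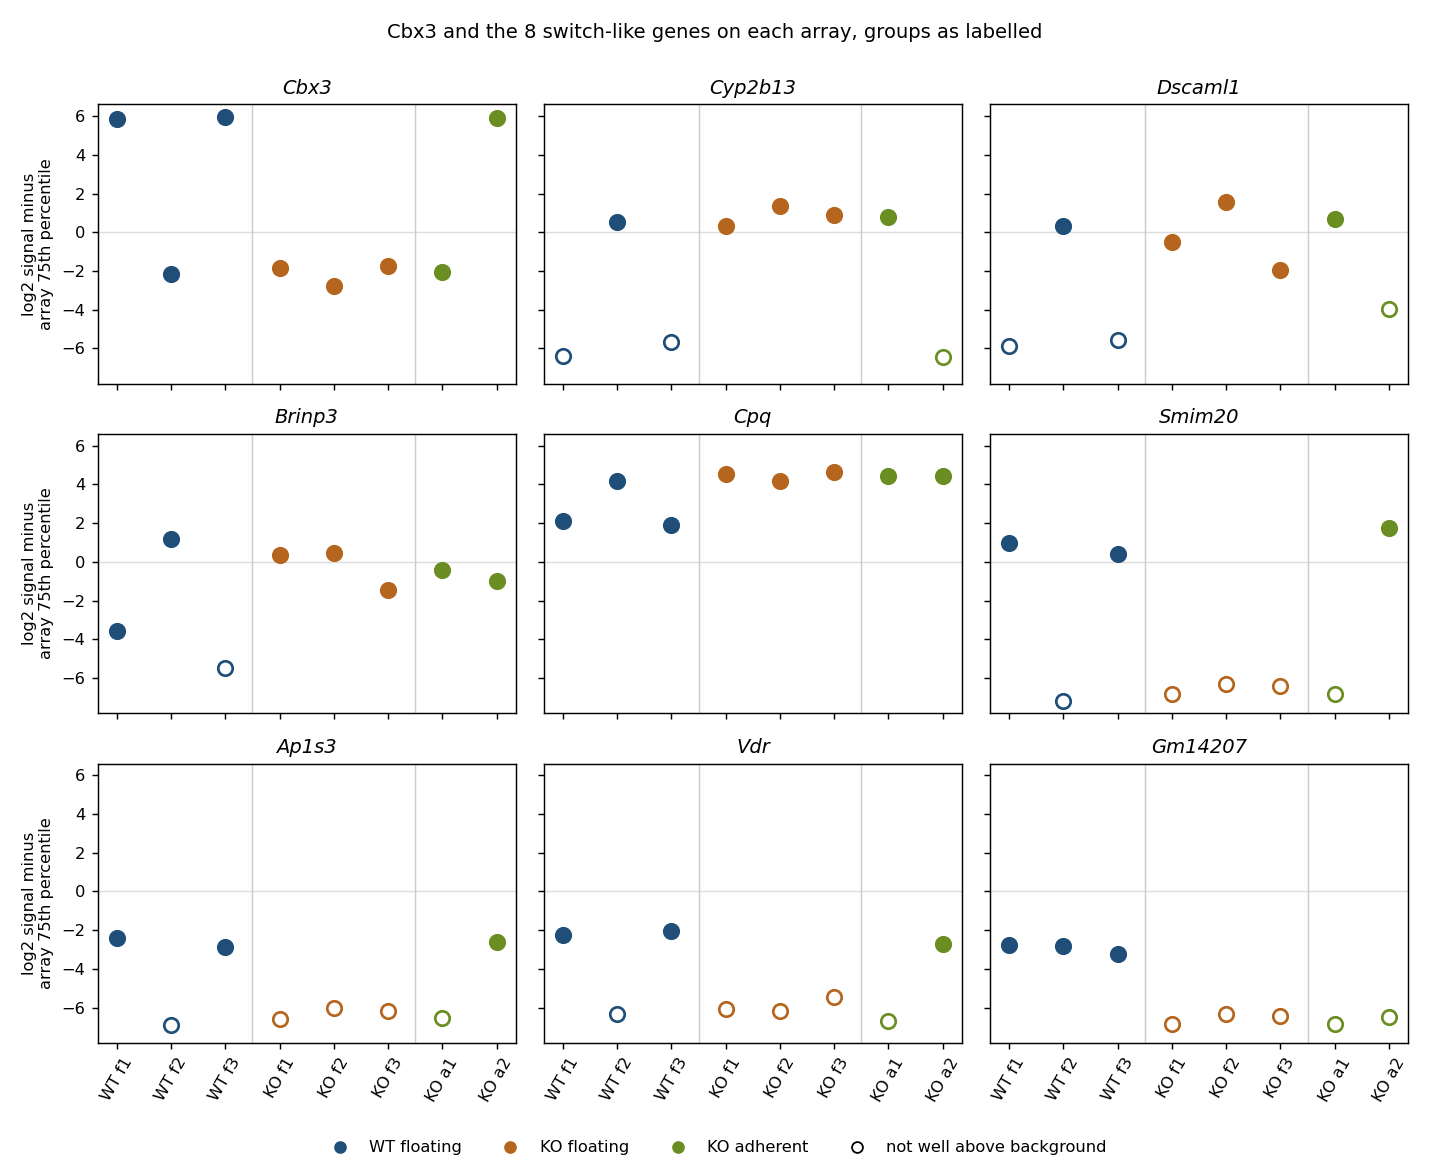
Level of Cbx3 and of the 8 genes on each array: the vertical axis is log2 processed signal minus the array's 75th percentile and the horizontal axis lists the arrays (f, floating; a, adherent). Open circles were not well above background. Cyp2b13 and Dscaml1 are high where Cbx3 is low, Smim20, Ap1s3 and Vdr are above background on the 3 arrays with high Cbx3, and Gm14207 follows the labels.

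Cyp2b13 belongs to the 2b subfamily of cytochrome P450, monooxygenases of drugs and steroids that are known mainly from the liver. It was above background on the 5 arrays with low Cbx3, with 0.56 on WT floating 2, 0.35, 1.38 and 0.89 on KO floating 1, 2 and 3 and 0.79 on KO adherent 1. On WT floating 1, WT floating 3 and KO adherent 2 it had -6.37, -5.69 and -6.46 and was not above background. In linear signal the 5 arrays ranged from 889 to 2220 and the other 3 from 8.21 to 12.3. High and low arrays were apart by 6.03 on the log2 scale, and the high arrays differed among themselves by 1.03. In RNA of whole cultures, fewer cells with a transcript and less of it per cell cannot be told apart.

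The other genes of the Cyp2b subfamily with a probe did not share this signal. Cyp2b9 and Cyp2b23 were above background on 0 arrays, with levels from -6.82 to -5.38 and from -6.97 to -4.43. Cyp2b10 and Cyp2b19 were above background on KO floating 2 alone, at -3.09 and -3.35. Among the hepatocyte markers, Ttr, Apoa1 and Hnf4a were above background on 0 arrays and Alb on 1. Serpina1a, the gene of a secreted protease inhibitor, was above background on 7 arrays and divided them as Cyp2b13 did. It had -3.90 on WT floating 1, -4.09 on WT floating 3 and -3.20 on KO adherent 2, and between -2.35 and -1.08 on the 5 arrays with Cyp2b13 signal. The log2 of the summed signal of the hepatocyte list lay between 2.16 and 2.36 on all 8 arrays, and Apoa2 alone, at 2.02 to 2.24, made up most of that sum. The part of hepatocyte-type transcripts in the Cyp2b13 signal was not tested.

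Dscaml1 encodes a cell adhesion molecule of the immunoglobulin superfamily, which acts in the self-avoidance of neurites. Its brighter probe was above background on the same 5 arrays as Cyp2b13. It had 0.35 on WT floating 2, -0.48, 1.54 and -1.97 on KO floating 1, 2 and 3, and 0.67 on KO adherent 1. The 3 other arrays, WT floating 1, WT floating 3 and KO adherent 2, had -5.85, -5.56 and -3.97. The high arrays spread over a range of 3.51, so Dscaml1 was graded rather than level among them. The gap of 2.01 to the low arrays ends below background and has no measured lower end. Its other probe was above background on KO adherent 1 alone (-3.98), and the remaining 7 arrays ranged from -6.21 to -4.73, so the pattern rests on 1 probe.

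Brinp3 encodes a protein of the BRINP family, named for induction by bone morphogenetic protein and retinoic acid in neural cells. It was lowest on WT floating 3 (-5.47, not above background) and on WT floating 1 (-3.60). WT floating 2 had the highest level of all, 1.17, and KO floating 1, 2 and 3 had 0.35, 0.46 and -1.46. KO adherent 1 had -0.41 and KO adherent 2 had -0.99. KO adherent 2 thus lay within the range of the low-Cbx3 arrays although its Cbx3 was high, so Brinp3 did not follow Cbx3 on that array.

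Cpq encodes carboxypeptidase Q, a secreted metallopeptidase that cleaves dipeptides. It was above background on all 8 arrays. WT floating 1 and 3 had 2.10 and 1.88. WT floating 2 had 4.18, KO floating 1, 2 and 3 had 4.52, 4.18 and 4.64, and the adherent arrays had 4.43 and 4.42. The last 6 values lay within 0.47 of each other, and the gap to the 2 low arrays was 2.08, or 4.22-fold. Both adherent arrays had the same Cpq level while their Cbx3 levels were far apart.

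Smim20 encodes a small protein of the inner mitochondrial membrane that takes part in the assembly of complex IV, the cytochrome c oxidase, and is the precursor of the peptide phoenixin. It was above background on the 3 arrays with high Cbx3, at 0.97 on WT floating 1, 0.42 on WT floating 3 and 1.76 on KO adherent 2. On WT floating 2 it had -7.16, on KO floating 1, 2 and 3 -6.85, -6.32 and -6.39, and on KO adherent 1 -6.83. In linear signal these were 1327, 844 and 2502 against 6.05 to 10.7 on the 5 arrays that were not above background. The gap of 6.73 on the log2 scale ends below background.

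Ap1s3 encodes a small sigma subunit of the clathrin adaptor AP-1, which sorts cargo between the trans-Golgi network and endosomes. Its levels above background were -2.42 on WT floating 1, -2.87 on WT floating 3 and -2.63 on KO adherent 2. WT floating 2 had -6.90, KO floating 1, 2 and 3 had -6.57, -6.00 and -6.17, and KO adherent 1 had -6.55. The same 3 arrays were high as for Smim20.

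Vdr encodes the vitamin D receptor, a nuclear receptor that pairs with retinoid X receptors. It was above background at -2.28 on WT floating 1, -2.04 on WT floating 3 and -2.70 on KO adherent 2. WT floating 2 had -6.33, KO floating 1, 2 and 3 had -6.07, -6.16 and -5.46, and KO adherent 1 had -6.69. The gap between its high and low arrays was 2.75, and that of Ap1s3 was 3.13. Both gaps end below background, where the order of the values carries no level.

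Gm14207 is a predicted gene for a long noncoding RNA with no known role. It was above background on WT floating 1, 2 and 3, at -2.77, -2.84 and -3.22, and on no KO array. KO floating 1, 2 and 3 had -6.84, -6.31 and -6.41, and KO adherent 1 and 2 had -6.83 and -6.50. WT floating 2, where Cbx3 was low, and KO adherent 2, where Cbx3 was high, both sat with the other arrays of their label. Gm14207 overlaps Dll4, a Notch ligand gene, in the RefSeq annotation. The Dll4 probe was above background on KO floating 2 alone (-1.13) and ranged from -5.62 to -4.46 on the other arrays, so it did not show the pattern of Gm14207. The strand that each probe reads was not tested.

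**Figure D2:**
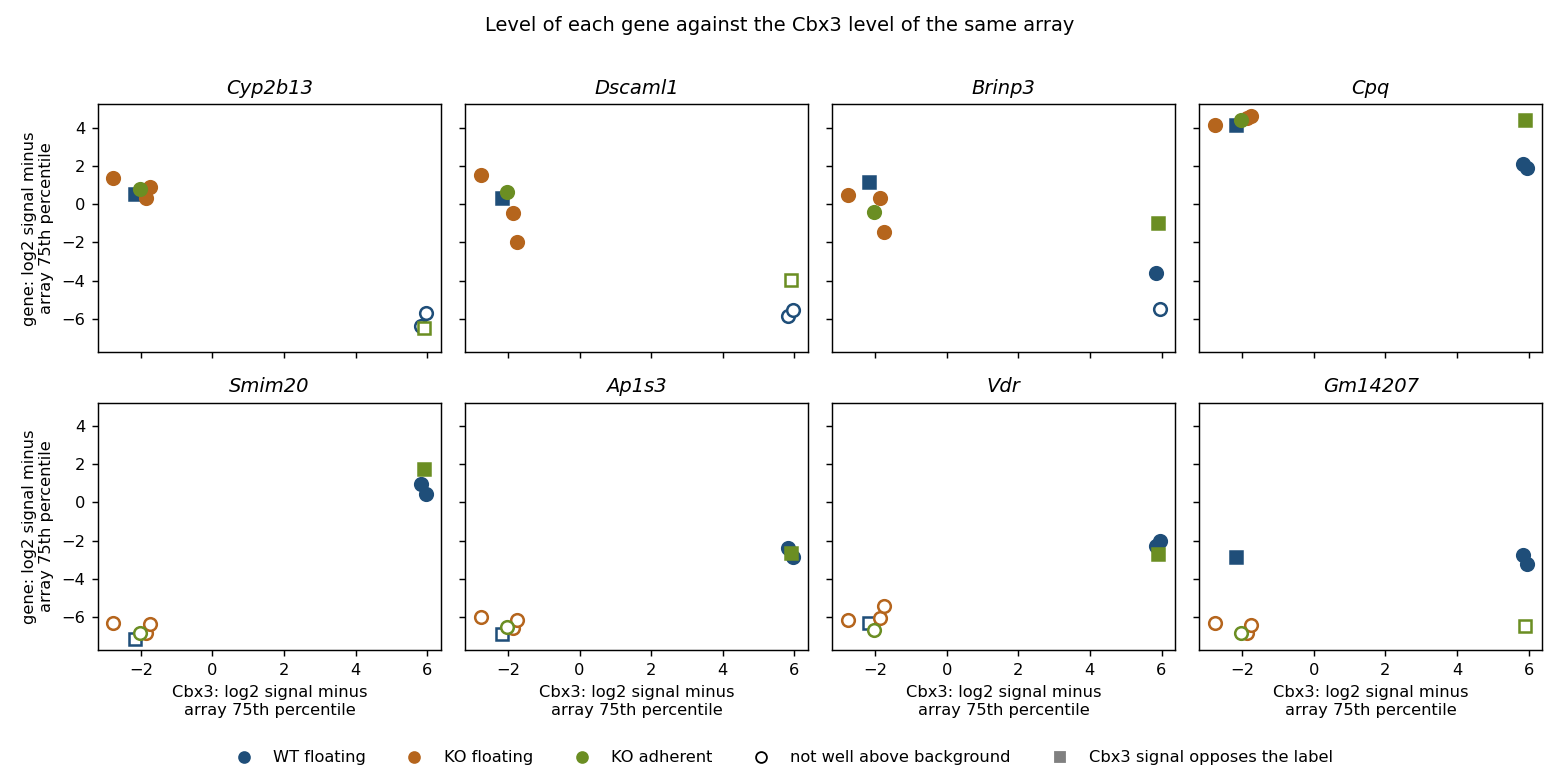
Level of each gene (vertical axis) against the Cbx3 level of the same array (horizontal axis), both as log2 processed signal minus the array's 75th percentile. Squares mark the 2 arrays whose Cbx3 signal opposes the label, and open symbols were not well above background. The square of KO adherent 2 leaves the low arrays for Cpq (4.42) and Brinp3 (-0.99), and both squares keep to their label for Gm14207.

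The on/off pattern itself is not common on these arrays. Of 26229 features above background on at least 2 arrays, 90 (0.343%) had their largest gap at 2 or more on the log2 scale and placed exactly as for Cbx3. In 33 of them (0.126%) the arrays with high Cbx3 were above the gap, as for Smim20, Ap1s3 and Vdr, and in 57 (0.217%) below it, as for Cyp2b13 and Dscaml1. The 3 WT floating arrays lay above all 5 KO arrays for 222 features (0.846%) and below them for 274 (1.04%). The groups lay 2 or more apart for Gm14207 alone by the measured values (1 of 26229, 0.00381%). Gaps that end below background, as that of Gm14207 does, have no measured lower end. The genes were picked for these patterns, so nothing is read from their place in these counts.

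By summed signal, some marker lists divided the arrays in the same way as these genes. The log2 of the summed signal of the 16 neural stem and ganglionic eminence markers was 9.07 on WT floating 1 and 9.05 on WT floating 3, and KO adherent 2 came next, below all other arrays. It was 9.80 on WT floating 2, 9.72, 10.0 and 9.43 on KO floating 1, 2 and 3 and 9.94 on KO adherent 1. Bright members weigh most in such a sum, and not all moved with it. Hes5 had 4.64, 5.11 and 5.80 on WT floating 1, WT floating 3 and KO adherent 2, and 7.48 to 8.57 on the other 5. Fabp7 and Slc1a3 were also lower on the first 3 arrays. Nes went the other way, with 5.26, 5.06 and 5.34 against 4.03 to 4.81, as did Vim, with 7.82, 7.84 and 7.60 against 6.98 to 7.36. The 5 astrocyte markers summed to 6.09 to 7.01 on the first 3 arrays and to 7.48 to 8.24 on the other 5, and 3 of them were above background on all arrays. Aldoc shared this split, with 3.62 to 5.12 against 6.11 to 7.55, while S100b, Aldh1l1 and Aqp4 overlapped between the sets. Gfap, above background on 3 arrays, was instead highest on WT floating 1 and 3 (-1.86 and -2.42). The 6 epithelial markers summed to between -2.10 and -1.65 on the first 3 arrays and to between -2.61 and -2.23 on the others, with Cdh1, Epcam, Krt8 and Krt18 above background on 0 arrays. Summed levels of neuronal, oligodendrocyte, endothelial, mesenchymal, and microglia and blood markers overlapped between those 2 sets of arrays. The part of these shifts in the levels of the 8 genes was not tested.

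As labelled, the group means were dominated by the 2 arrays. Cyp2b13 averaged -3.83 ± 3.82 in WT floating, 0.87 ± 0.51 in KO floating and -2.84 ± 5.13 in KO adherent (SD, n = 3, 3 and 2). Smim20 averaged -1.93 ± 4.54, -6.52 ± 0.29 and -2.53 ± 6.07 in the same order. The arrays of WT floating and KO floating overlapped for both. Cpq averaged 2.72 ± 1.27, 4.45 ± 0.24 and 4.43 ± 0.01, and Gm14207 -2.94 ± 0.24, -6.52 ± 0.28 and -6.67 ± 0.23, and for these 2 genes WT floating did not overlap either KO group. For Cpq the WT floating array nearest to the KO arrays differed from the lowest of them by less than the spread of the KO arrays.

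In the order WT floating, KO floating and KO adherent, Dscaml1 averaged -3.69 ± 3.49, -0.30 ± 1.76 and -1.65 ± 3.28 (SD, n = 3, 3 and 2). Brinp3 averaged -2.63 ± 3.42, -0.22 ± 1.08 and -0.70 ± 0.41. Ap1s3 averaged -4.06 ± 2.47, -6.25 ± 0.29 and -4.59 ± 2.77, and Vdr -3.55 ± 2.41, -5.90 ± 0.38 and -4.70 ± 2.82. The SD exceeded 2 in WT floating for these 4 genes and in KO adherent for 3 of them, Brinp3 being the exception.

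Of the 8 genes, 5 entered the limma fit of all 8 arrays. Smim20, Ap1s3 and Vdr did not, since no labelled group had them above background on every array. In that fit 1 of 22667 features (0.00441%) passed a Benjamini-Hochberg adjusted p of 0.05 in KO against WT floating, and this was Gm14207. Gm14207 was also the 1 feature (0.00441%) that passed in KO adherent against WT floating, and 0 of 22667 passed in the comparison of both KO cultures, where 253 had an unadjusted p under 0.05 in limma. Leaving out WT floating 3 gave 3 features in both WT comparisons, and leaving out any other single array gave 0. With the replicate number as a block, limma called 0 features in each of these comparisons (344, 877 and 768 at an unadjusted p under 0.05 in the order given). Since the choice of the genes used these contrasts, nothing is read from these counts.

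For genes dim in a whole group, only a bound on the fold can be given, the bright group's mean against the lowest signal above background on the dim arrays. As labelled, Gm14207 was at least 2.47-fold lower in KO floating and at least 2.71-fold lower in KO adherent than in WT floating. Smim20, Vdr and Ap1s3, each above background on 2 of 3 WT floating arrays, were at least 5.00-fold, 1.62-fold and 1.14-fold lower in KO floating. The WT floating means behind these bounds include WT floating 2, which was not above background for any of the 3 genes. Leaving out WT floating 2 and KO adherent 2, the bounds for KO against WT floating were at least 25.6-fold higher for Cyp2b13 and 11.4-fold higher for Dscaml1. On the other side, at least 30.7-fold lower for Smim20, 4.26-fold for Vdr, 3.04-fold for Ap1s3 and 2.38-fold for Gm14207 were obtained. Cpq, measured on both sides, was higher by 2.46 on the log2 scale. Brinp3 was higher by 4.32, but only 1 of the 2 WT floating arrays was above background.

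Without these 2 arrays all 8 genes entered the fit, and 6 passed in KO against WT floating, where limma called 46 of 25998 features (0.177%). The 2 that did not pass were Dscaml1 and Brinp3. The 2 arrays were left out for a Cbx3 level that the genes had been picked to follow, so this count describes the pattern once more. KO adherent 1 was then the single adherent array, and its levels lay within the range of the KO floating arrays for Cyp2b13, Dscaml1, Brinp3 and Cpq. Smim20, Ap1s3, Vdr and Gm14207 were not above background on KO adherent 1 or on any KO floating array, so their levels there cannot be compared.

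The sequence before the transcription start was not used to choose the genes. RefSeq promoter windows (GRCm38.p6) were at hand for 6 of the 8 genes, and Dscaml1 and Cpq had none in the table. The upstream stretches of the 4 genes with a window that followed Cbx3 on all arrays, 1 high and 3 low where Cbx3 was low, are printed to show how they differ in CpG dinucleotides, the sites of DNA methylation in mammals. Capitals mark each CG. Bases of the 250-base window that lie inside the annotated gene were left off, 107 for Cyp2b13 and 46 for Ap1s3.

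Cyp2b13, chr7:26061245-26061387, plus strand: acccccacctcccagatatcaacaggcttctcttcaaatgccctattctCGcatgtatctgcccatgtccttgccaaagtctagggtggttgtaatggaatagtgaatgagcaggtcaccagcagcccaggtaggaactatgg
Smim20, chr5:53266856-53267105, plus strand: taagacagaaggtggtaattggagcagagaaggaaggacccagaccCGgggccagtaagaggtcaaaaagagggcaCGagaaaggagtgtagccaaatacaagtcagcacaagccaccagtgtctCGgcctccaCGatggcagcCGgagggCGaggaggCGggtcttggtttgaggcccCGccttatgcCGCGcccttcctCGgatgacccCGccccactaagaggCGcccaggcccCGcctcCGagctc
Ap1s3, chr1:79672019-79672222, minus strand: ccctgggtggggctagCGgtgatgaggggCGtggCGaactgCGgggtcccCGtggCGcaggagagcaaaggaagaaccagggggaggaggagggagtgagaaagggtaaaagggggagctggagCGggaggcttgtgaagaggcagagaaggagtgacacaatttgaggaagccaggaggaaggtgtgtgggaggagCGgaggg
Vdr, chr15:97908297-97908546, minus strand: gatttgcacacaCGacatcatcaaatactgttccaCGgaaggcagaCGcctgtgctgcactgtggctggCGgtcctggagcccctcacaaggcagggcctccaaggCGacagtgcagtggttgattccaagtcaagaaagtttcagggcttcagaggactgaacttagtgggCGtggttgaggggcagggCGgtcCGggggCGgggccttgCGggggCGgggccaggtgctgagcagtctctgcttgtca

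The full window of Cyp2b13 holds 1 CG, those of Ap1s3, Vdr and Smim20 hold 10, 11 and 15, and that of Gm14207 holds 23. Brinp3 has 3 annotated starts with 4, 3 and 8. The median of 32851 windows of 250 bases is 6, with quartiles at 2 and 16. The Cyp2b13 window has fewer CG than 81.2% of all windows, and the Gm14207 window, which lies inside the Dll4 gene, has more than 86.7% of them. Cyp2b13, which was on where Cbx3 was low, thus has the most CpG-poor of these windows, and the 3 genes that were on where Cbx3 was high lie above the median, with no test over so few genes.

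Short motifs were searched on both strands of the 250 bases. TATAAA, the TATA box core, was in 0 of the 6 genes' windows and in 12.4% of all windows. GGGCGG, the GC box, was in those of Gm14207, Smim20 and Vdr and in 32.7% of all, and CCAAT in those of Brinp3, Gm14207 and Smim20 and in 33.8% of all. CACGTG, an E-box, was in none of the 6 and in 6.02% of all. AGGTCA, a core site of nuclear receptors, was in those of Cyp2b13 and Smim20 and in 14.0% of all. No motif was shared by all 3 genes that were high with Cbx3, and these matches describe letters, not binding.

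**Figure D3:**
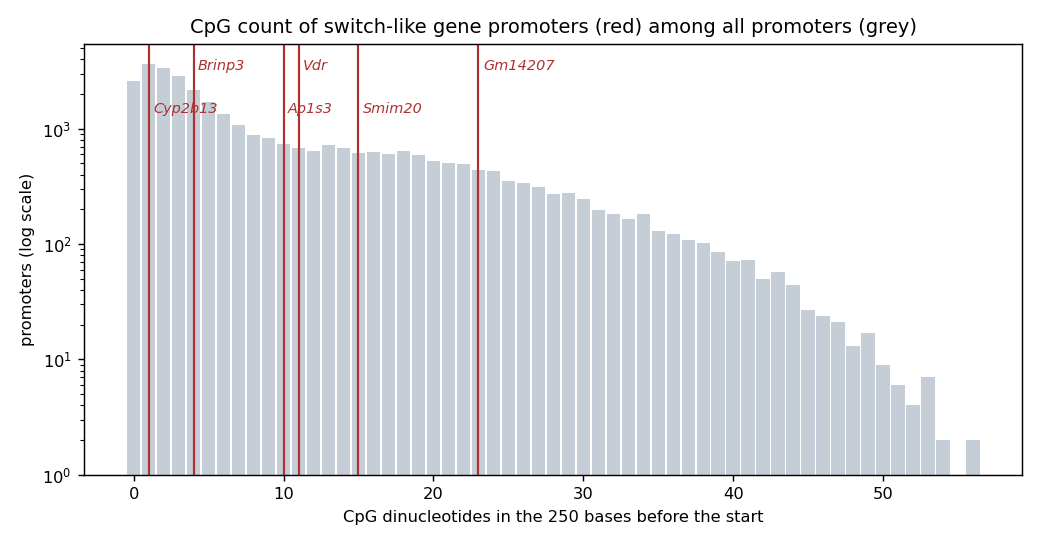
Number of CpG dinucleotides in the 250 bases before the start (horizontal axis) for 32851 RefSeq promoter windows (grey bars, log scale) and for the 6 genes with a window (red lines, Brinp3 at its first start). Cyp2b13 stands at 1 and Gm14207 at 23.

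Position on the chromosome was likewise not used to choose the genes. For each of the 8, the 5 nearest measured genes per side were taken in the order of the RefSeq table, 80 in all. The median range of a neighbour over the 8 arrays was 0.82 on the log2 scale. A largest gap of 2 or more placed as for Cbx3 occurred in 0 of the 80. Among the 26229 features above background on at least 2 arrays it occurred in 0.343%, so 0 of 80 is near that share. Measured genes had to be above background on every array of 1 labelled group. A neighbour above background only on the 3 arrays with high Cbx3 could therefore not be among them. Nothing is read from this count. In limma on the labelled groups 0 of 80 passed in KO against WT floating, where 0.00441% of all features did. Without the 2 arrays 0 passed, where 0.177% of all features did. Both counts are near those shares. When the 4 remaining KO arrays of both cultures were joined against WT floating 1 and 3, 12 of 79 neighbours passed (15.2%, 7 higher and 5 lower) where 17.3% of all 21481 features did. That count was 4 without KO floating 1, 2 without KO adherent 1, 17 without KO floating 2 and 14 without KO floating 3. In the same order, 3.24%, 2.14%, 23.6% and 22.9% of all features passed. The count and the share of all features both fell when WT floating 1 or 3 was left out, which leaves 1 WT floating array.

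Single neighbours did vary widely. Scg2, the secretogranin gene next to Ap1s3 among measured genes, ranged over 5.78 on the log2 scale. In the joined comparison it fell by 3.40 (SE 0.500, limma adjusted p = 0.0154), in the direction of Ap1s3. Axl, a receptor tyrosine kinase gene that is the nearest measured gene on one side of Cyp2b13 with others between them, rose by 1.16 (SE 0.278, limma adjusted p = 0.0404). Tspyl5, beside Cpq, rose by 0.77 (SE 0.191, limma adjusted p = 0.0435). The other nearest genes, among them Sel1l3 and Rbpj beside Smim20, Hdac7 and Tmem106c beside Vdr, and Vps18 and Chac1 beside Gm14207, did not pass.

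**Figure D4:**
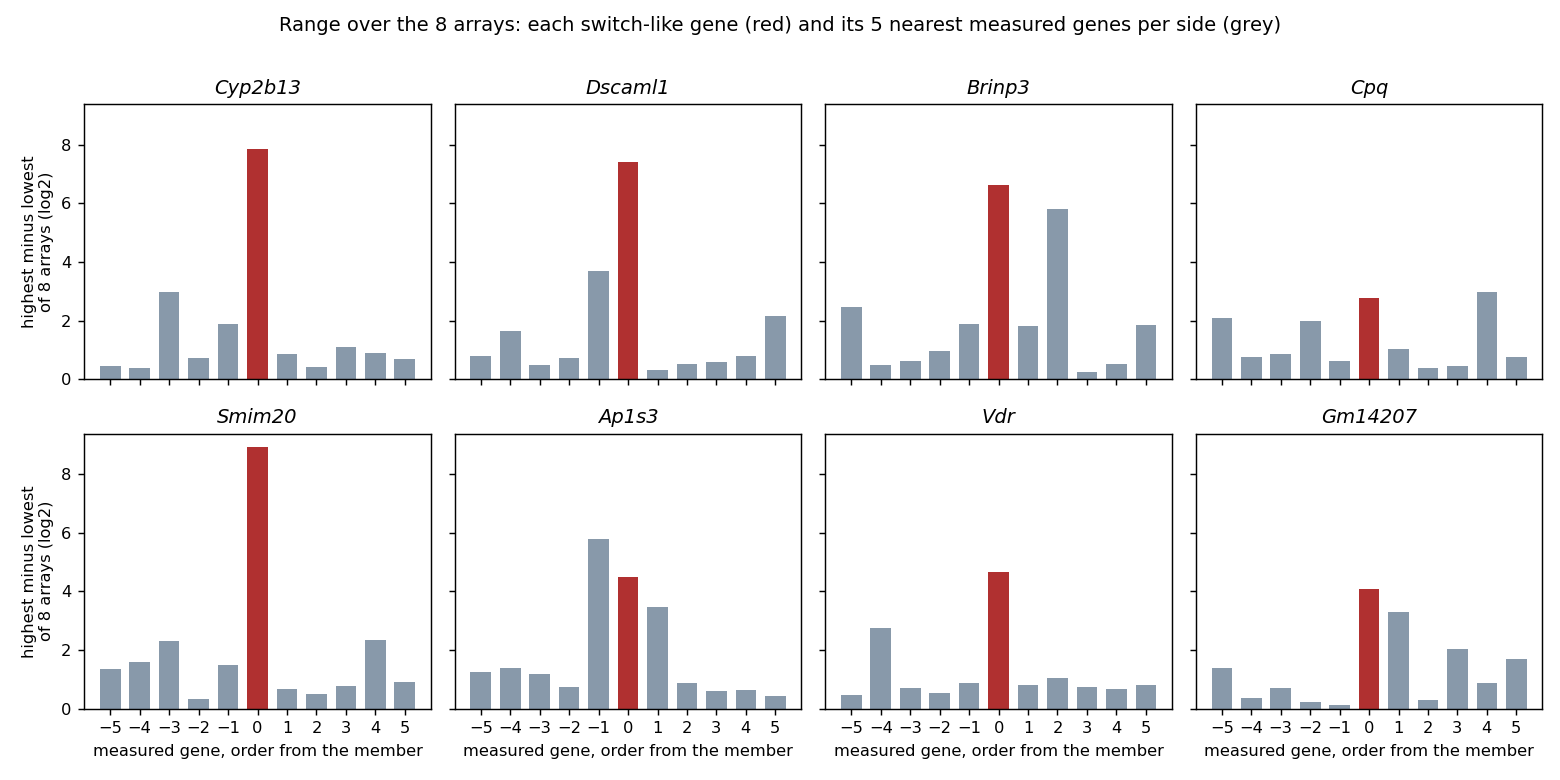
Highest minus lowest level of the 8 arrays (log2, vertical axis) for each of the 8 genes (red, position 0) and for the 5 nearest measured genes on each side in chromosomal order (grey). All red bars except that of Cpq end in values below background, so their height is not a measured range. The bar of Scg2 (5.78) is taller than the one drawn for Ap1s3, whose lower end is not measured, and Matn2 (2.96) exceeds Cpq.

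Genes that work with the 8 were compared next, in lists written with earlier results known: 119 genes, of which 114 had a probe and 80 entered the fit of all arrays. In the 3 labelled comparisons limma called 0 of these 80, where at most 0.00441% of all features passed. In each, 1 of the 80 had an unadjusted p under 0.05 in limma. Without the 2 arrays limma called 0 of 83, where 0.177% of all features passed in KO against WT floating. In that comparison 21 of the 83 had an unadjusted p under 0.05 in limma (25.3%, where 6565 of 25998 features, also 25.3%, had one). In the joined comparison 13 of 79 passed (16.5%, 6 higher and 7 lower), close to the 17.3% of all features (8.99% higher and 8.36% lower). The count was 4 without KO floating 1 and 3 without KO adherent 1, all among these 13, and 15 and 19 without KO floating 2 and 3. In the same order, 3.24%, 2.14%, 23.6% and 22.9% of all features passed. Leaving out WT floating 1 or 3 leaves 1 WT floating array. All or nearly all of the 13 calls were then lost, and the share of all features called fell too. The joined comparison cannot tell culture from genotype for KO adherent 1. With the replicate number as a block 12 related genes passed, 8 of them among the 13. Clta, Cntn1, Cntn3, Ermp1 and Nrcam then missed the threshold (limma adjusted p from 0.0547 to 0.0868), and Ap1s1, Cpm, Nr1i3 and Rxra passed (0.0374 to 0.0469). The results that follow are from the joined comparison without the block.

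Of the 3 measured genes around the P450 enzymes 1 fell. Por, the reductase that passes electrons to P450 enzymes, had 4.92 and 4.79 on WT floating 1 and 3, and 3.77, 3.82, 3.89 and 3.49 on KO floating 1, 2, 3 and KO adherent 1, a difference of -1.11 (SE 0.157, limma adjusted p = 0.0142). The array labelled WT floating 2 had 3.84 and KO adherent 2 had 4.70. The 5 arrays with the lower Por levels were those with Cyp2b13 above background. Nr1i3, the receptor CAR that induces Cyp2b genes in liver, was above background on all 8 arrays, from -1.81 to 0.73, and did not pass (limma adjusted p = 0.437, and 0.0414 with the replicate block).

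Of 14 measured immunoglobulin adhesion genes 3 rose and 3 fell. Robo2, a Slit receptor of axon guidance, rose by 1.87 (SE 0.325, limma adjusted p = 0.0218), and Sdk1, a synaptic adhesion molecule, by 1.24 (SE 0.183, limma adjusted p = 0.0153). Nrcam and Cntn3, adhesion molecules of axons, fell by 1.18 and 0.94, and with the replicate block neither passed (limma adjusted p = 0.0868 and 0.0660). Dscam, the closest relative of Dscaml1, was above background on all arrays, from 1.49 to 3.85, and did not pass. The list moved in both directions while Dscaml1 was high on the KO arrays of the comparison.

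Of the 3 measured BRINP and astrotactin genes 2 rose. Brinp2 had -2.36 and -2.49 on WT floating 1 and 3 and -0.39, 0.74, -0.49 and -0.27 on the KO arrays, a rise of 2.32 (SE 0.360, limma adjusted p = 0.0170). It had 0.16 on the array labelled WT floating 2 and -0.99 on KO adherent 2, so its order over the arrays resembled that of Brinp3, with WT floating 1 and 3 lowest. Astn1, a neuron-glia adhesion protein, rose by 1.01 (SE 0.245, limma adjusted p = 0.0413). Brinp1 was above background on 0 arrays.

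Of 10 measured metallopeptidase genes 1 rose and 2 fell. Cpxm1, a carboxypeptidase-like protein of the metallopeptidase family, had 2.88 and 2.75 on WT floating 1 and 3 and 3.73, 3.94, 3.86 and 3.87 on the KO arrays, a rise of 1.03 (SE 0.130, limma adjusted p = 0.0115). It had 3.75 on the array labelled WT floating 2 and 2.74 on KO adherent 2. Ermp1, a peptidase of the endoplasmic reticulum, fell (limma adjusted p = 0.0338, and 0.0547 with the replicate block), and Qpctl, a glutaminyl cyclase of the Golgi, fell by 0.78 (SE 0.133, limma adjusted p = 0.0211).

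The lists around the genes that were on with high Cbx3 held 1 passing gene. Of 23 measured complex IV assembly genes 0 passed (median log2 difference -0.15, all features -0.07). Cox14 and Coa3, the brightest of them, ranged from 5.97 to 6.69 and from 4.78 to 5.44, while Smim20 ranged over 8.92 on the log2 scale. Of 14 AP-1 adaptor and clathrin genes 1 fell, Clta, a clathrin light chain, by 0.47 (SE 0.123, limma adjusted p = 0.0478, and 0.0615 with the replicate block). Ap1s1 and Ap1s2, the other small sigma subunits, were above background on all 8 arrays by their brightest probes, from 5.10 to 5.85 and from -3.80 to -2.50. Of 12 measured vitamin D genes 0 passed. Rxrb, a retinoid X receptor and among the brightest of them, ranged from 4.18 to 4.83, and Cyp24a1, a target gene of the receptor, was above background on 0 arrays.

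**Figure D5:**
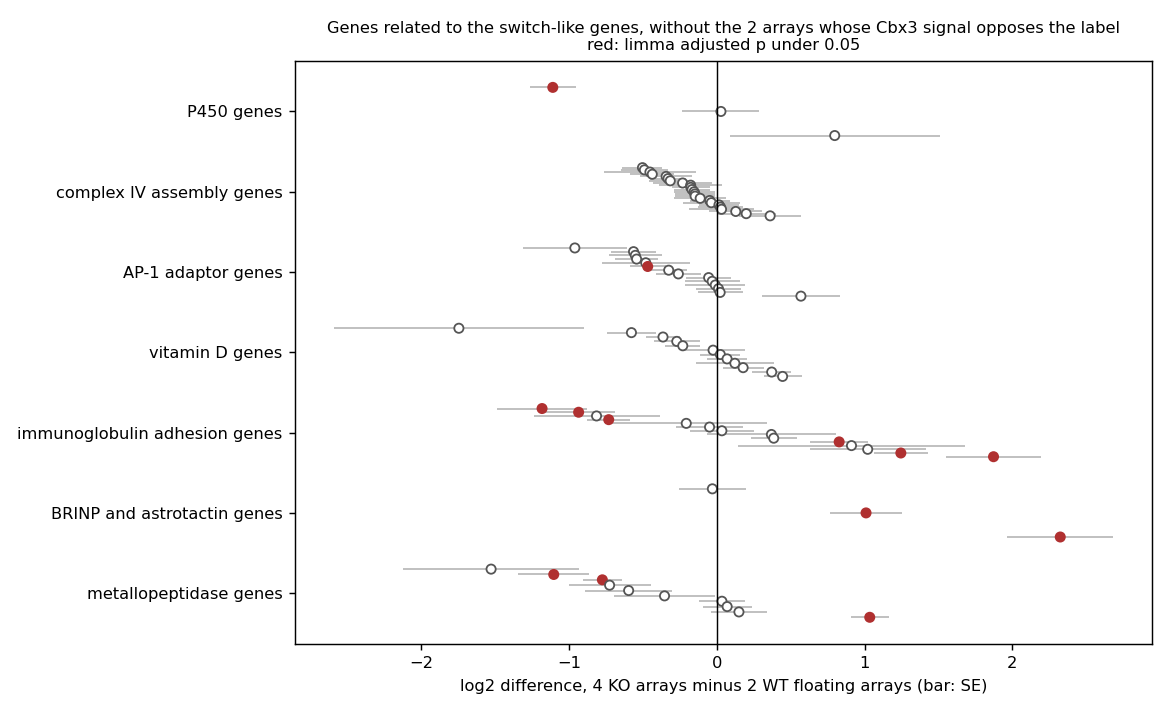
Log2 difference (horizontal axis, bars SE) of the related genes by list in the joined comparison, 4 KO arrays minus WT floating 1 and 3, leaving out the other WT floating and the other adherent array. Filled red points passed a limma adjusted p of 0.05: 13 of 79, with 6 to the right and 7 to the left of 0, and none in the complex IV or vitamin D lists.

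The genes most like each of the 8 were found by Pearson's r of the level over the 8 arrays among 13612 named features. The arrays fall into separate levels, so r mainly measures how well the split is shared. For Cyp2b13 they were Gjc3 (r = 0.994), Hoxa7 (0.993) and Cpxm1 (0.992), and for Dscaml1 Tnk2 (0.997), Fnbp4 and Slc24a3 (both 0.994). Gjc3, a connexin gene of glia, and Hoxa7 were above background on the same number of arrays as Cyp2b13, 5, while Cpxm1 stayed above background on all 8 and ranged over 1.19 on the log2 scale.

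For Smim20 the nearest were Mybbp1a, Psmb7 and Avpi1 (r = 0.997, 0.997 and 0.995), all above background on 8 arrays with ranges of 0.73, 0.61 and 1.32 against 8.92 for Smim20. For Ap1s3 they were Plaur, the urokinase receptor, Snrnp27 and Dennd3 (r = 0.996, 0.994 and 0.992), and for Vdr Bola2, Mrps28 and Cyb5r3 (r = 0.997, 0.996 and 0.996). Plaur and Dennd3 were above background on 3 arrays, as Ap1s3 was. The same split thus appears as on/off in some features and as a small step in bright ones.

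Genes with the other splits had their own neighbours in level. For Brinp3 they were Vpreb1, Pjvk and Zfp934 (r = 0.992, 0.982 and 0.977), and for Cpq Pax9, Camkk1 and Kif21b (r = 0.985, 0.977 and 0.976). Pax9, a paired-box factor, had -4.77 and -5.49 on WT floating 1 and 3 and -1.94 to -0.74 on the other 6 arrays. For Gm14207 the nearest features reached only 0.922 (Shoc2 and Dgkz) and 0.909 (Zfp217), and they ranged over 0.51, 1.01 and 0.66 against 4.07 for Gm14207.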

How the data were processed

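Total RNA of 8 mouse neurosphere samples was measured with Cy3 on 1 Agilent slide that holds all arrays, with 1 scan time. The deposited scanner files hold spot intensity on a linear scale, made by Feature Extraction 11.0.1.1 per the file headers and 9.1.3.1 per the submitters' processing notes. The authors' value table agreed within 0.01% with that intensity for 99.1% to 99.2% of probes and served as an alternative.

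Levels are log2 of the processed signal minus the array's 75th percentile, without outlier spots (200 probes then lacked a value on an array), repeated spots averaged. Probes were named by accession through a RefSeq table (GRCm38.p6; 27235 of 55681 matched), and a gene was represented by its brightest probe on average. Tested were probes that some group had well above background on all its arrays. Tests used limma 3.58.1 in R 4.3.3 (lmFit, eBayes, two-sided, 3 groups sharing the spread, Benjamini-Hochberg over all features), checked on simulated data. Normexp (offset 50) used the median spot signal, as a mean signal is absent. For a bound, each dim array contributed the lowest signal above background, or the probe's value where higher. The number of arrays limits the precision.

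The members, lists, alternatives and the joined comparison were chosen with earlier results of these data known. Further checks of the joined comparison, by leaving out each array, with a replicate block and under other settings, were added after its count was seen. Named genes are the members, up to 4 passing genes per related list (otherwise its 2 brightest), the BRINP and Cyp2b families, the 3 features most like each member, the nearest measured gene on each side, and defining markers. Outside this rule, Dll4, Nr1i3, Dscam, Ap1s1, Ap1s2, Cyp24a1, Serpina1a, Apoa2 and genes whose call changes with the replicate block were named after their values were seen. Deviations of same-numbered WT and KO floating arrays from their group means had r across features of 0.103, 0.590 and 0.335. Differently numbered floating arrays reached 0.347, above 0.103 and 0.335, so these values do not show pairing by number. Same-numbered pairs with an adherent array did not deviate together (r from -0.631 to -0.0536), and differently numbered pairs with one reached 0.631. The 2 adherent arrays mirror each other around their mean. The replicate block was still fitted to all groups. Protein sequences were not analysed here. Some genes that this rule names are not reported here.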

Additional observations from a re-analysis of the deposited data

How the results depend on the processing

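The count of features past limma's threshold in KO against WT floating was 1, and 1 with quantile normalization and with the authors' value table. It was 0 in 7 settings: normexp, no probe filter, a filter for all arrays, a fit of the 2 groups alone, eBayes with intensity trend and robust, the replicate block, and the slide row block. It was 46 without the 2 arrays whose Cbx3 opposes the label, and 3726 with the KO cultures joined. For KO adherent against WT floating it was 1, 8 with quantile normalization, 4 without the 2 arrays and 0 under these 7 settings. For KO adherent against KO floating it was 0, and 7 with quantile normalization. Leaving out each array gave 0 to 3, 0 to 3 and 0 to 6, with 3 without WT floating 3 in both WT comparisons, and 6 without WT floating 2 in the last. Related genes past the threshold were 0 under every setting run on the labelled groups and 13 in the joined comparison, where 12 passed with the replicate block, 13 with quantile normalization, 15 with normexp and 16 with the filter for all arrays. The cause was not tested.

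Of 99 repeated differences between groups of the 8 genes, 5 changed sign, all in KO adherent minus KO floating: without the 2 arrays Smim20 went from 3.99 to -0.31, Ap1s3 from 1.65 to -0.31, Vdr from above 0 to -0.80 and Dscaml1 from -1.35 to 0.97, which the other Dscaml1 probe gave as 0.49. Cyp2b13 went from -3.71 to -0.08. In KO floating minus WT floating, Dscaml1 was 3.39 and by its other probe 0.34, and Ap1s3 was -2.19 and with normexp -0.64. Gm14207 was -3.58 and with normexp -1.13, and in KO adherent minus WT -3.72 and -1.41. The replicate SD, up to 6.07 through the 2 arrays, is no measure of stability here. Levels below background are bounds.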
